A study of Mus musculus with 15 samples.

Results

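Cd22 was 1 of 19752 genes measured on arrays of mouse regulatory T cells (Treg), and it had the largest rise of them all in cells with active Notch1. The gene was chosen by that rise in the same arrays, and by the part of it that was still present when Rbpj was deleted. Its differences between the groups with active Notch1 and the others therefore describe the choice and carry no test. A single array feature named Cd22, transcript cluster 10562132, and it named no other gene.

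CD22 is a cell surface lectin of the Siglec family, which binds glycans that end in sialic acid, and it is best known as an inhibitory receptor of B cells. Its cytoplasmic tail carries tyrosine motifs (ITIMs) that Src family kinases phosphorylate. The phosphorylated motifs bind the phosphatase encoded by Ptpn6, which dampens signals from the B cell antigen receptor. Textbook accounts place CD22 on B cells and not among the usual markers of T cells. Notch1 is a receptor whose cleaved intracellular domain enters the nucleus and joins RBPJ, a DNA-binding protein, to switch on target genes such as Hes1, Hey1 and Dtx1.

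All cells carried the Foxp3EGFPCre allele, which makes a green fluorescent protein and the Cre recombinase from the Foxp3 locus and so limits recombination to Treg. The control group had this allele alone (Foxp3EGFPCre, 4 arrays). The N1c group also had R26N1c/N1c, an allele at the Rosa26 locus that makes an active form of Notch1 once Cre has acted (4 arrays). The RBPJdel group was Foxp3EGFPCreRBPJ∆/∆, from floxed Rbpj alleles (RBPJfl/fl) (4 arrays), and the N1c_RBPJdel group, Foxp3EGFPCreR26N1c/N1cRBPJ∆/∆, combined both changes (3 arrays). The mice were males, 6 weeks old, and no group received a treatment. Each array held cells pooled from several spleens and sorted for CD3, TCRbeta, CD4 and the Foxp3 reporter, with a gate that removed cells bearing B220 (a B cell surface marker), CD8, CD11b, CD11c or Gr1. The p-values below measure the spread between these pools. A FACSAria sorted the N1c_RBPJdel cells and a MoFlo those of the other groups. In every comparison with N1c_RBPJdel, genotype and sorter cannot be told apart.

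The arrays had median intensities from 107.1 to 117.2, and correlations between arrays lay from 0.957 to 0.996. Foxp3, which defines Treg, had a geometric mean intensity of 4979 in control against 4342 in N1c, and of 5333 in RBPJdel against 4220 in N1c_RBPJdel. Rbpj had more than 1 feature, and the values here are those of the brightest. It lay between 470 and 571 on the control arrays and between 225 and 294 on the RBPJdel arrays. That difference was called (limma, adjusted p = 0.00213), but not with the mean of the features (adjusted p = 0.320). The brightest feature lay between 489 and 572 on the N1c arrays and at 175, 258 and 201 in N1c_RBPJdel 1, 2 and 3. Signal on this feature thus remained in both groups with the deletion. Notch1 itself did not read clearly higher with the R26N1c/N1c allele. Its geometric mean was 1252 for N1c beside 1227 for control, a log2 difference of 0.03 (limma, unadjusted p = 0.873). Among cells without Rbpj, those with the allele stood 0.40 lower, at 1008 beside 1326 (limma, adjusted p = 0.258). Whether the Notch1 feature covers the RNA made from the allele was not tested. Of 10 Treg markers, limma called 0 in N1c against control, where 3 had an unadjusted p under 0.05. Of all genes, 0.937% were called higher and 0.714% lower in this comparison, and 8.21% had an unadjusted p under 0.05. Nrp1, a surface receptor of Treg that was not on that list, fell by 1.56 (limma, adjusted p = 4.17e-07, range 2.45e-08 to 0.000127 over the alternatives).

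In the RefSeq table of GRCm38.p6, Cd22 lies on the minus strand at chr7:30865404-30880342, a span of 14939 bases. Its promoter window, from 250 bases before to 50 bases after the listed start, is shown because Cd22 was the gene that fell furthest between N1c and N1c_RBPJdel. The window lies inside the annotated span of the gene. That of Ffar1, the nearest measured gene beyond the 3′ end of Cd22 and on the same strand, is shown because it was the one neighbour that rose with it. The capitals mark TGGGAA, the core of the sequence that RBPJ recognises, and both windows are written 5′ to 3′ on the minus strand.
Cd22, chr7:30878979-30879278: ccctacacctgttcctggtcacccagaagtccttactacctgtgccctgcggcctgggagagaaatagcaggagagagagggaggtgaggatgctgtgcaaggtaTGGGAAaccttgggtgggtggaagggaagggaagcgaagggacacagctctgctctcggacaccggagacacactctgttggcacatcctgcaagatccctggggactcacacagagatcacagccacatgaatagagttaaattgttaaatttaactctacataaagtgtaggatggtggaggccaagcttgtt
Ffar1, chr7:30861421-30861720: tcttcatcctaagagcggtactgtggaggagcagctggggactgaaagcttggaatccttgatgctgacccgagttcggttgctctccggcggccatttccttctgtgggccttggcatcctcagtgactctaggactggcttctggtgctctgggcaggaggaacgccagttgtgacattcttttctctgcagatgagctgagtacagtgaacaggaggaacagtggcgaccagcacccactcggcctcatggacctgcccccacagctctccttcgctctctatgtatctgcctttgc

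The Cd22 window held TGGGAA once, in the sense orientation, from base -145 to base -140 of the start, and the Ffar1 window held none. Both strands were searched for TGGGAA and for the longer GTGGGAA, which contains it, and neither window held the longer form. TGGGAA was present in 25.6% of the 32851 windows of this length in the table, and GTGGGAA in 6.38%. A match describes these letters only, and the arrays do not measure binding.

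Cd22 was low in control Treg, high in every N1c array, low in RBPJdel, and between control and N1c in N1c_RBPJdel. The control arrays 2, 3, 4 and 5 read 84.2, 72.6, 95.3 and 94.3 intensity units. The N1c arrays 1, 2, 4 and 5 read 1095, 1312, 1390 and 1814. The lowest N1c array stood far above the highest control array. The RBPJdel arrays 1 to 4 read 73.9, 64.4, 61.6 and 64.4, and the N1c_RBPJdel arrays 1 to 3 read 130, 195 and 115. The N1c_RBPJdel arrays thus lay above every control and every RBPJdel array and below every N1c array, while the control and RBPJdel groups overlapped, RBPJdel 1 reading above control 3. The order of the group levels was N1c, N1c_RBPJdel, control, RBPJdel.

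**Figure D1:**
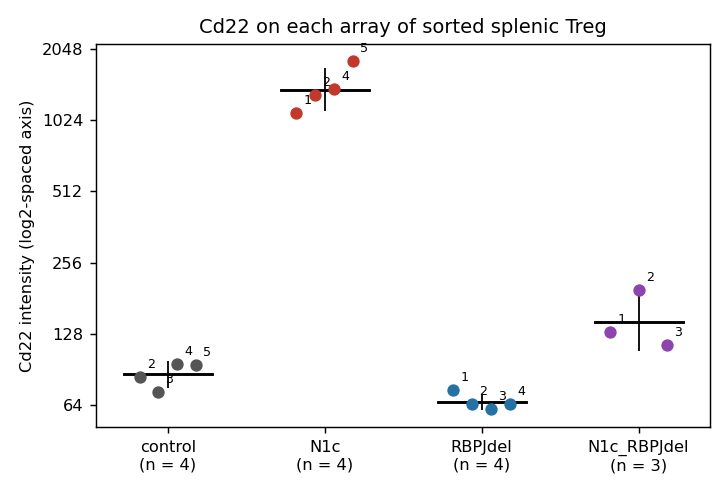
Cd22 intensity on each array (points, numbered by replicate) in the 4 groups, on an axis spaced by log2. Thick lines are geometric means and thin bars 1 SD of the log2 values. The N1c arrays lie from 1095 to 1814, the N1c_RBPJdel arrays from 115 to 195, and the control and RBPJdel arrays below 96.

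The geometric means were 86.1 for control (SD 0.18 on the log2 scale, n = 4), 1380 for N1c (SD 0.30, n = 4), 65.9 for RBPJdel (SD 0.11, n = 4) and 143 for N1c_RBPJdel (SD 0.40, n = 3). N1c stood 4.00 ± 0.16 (SE) above control on the log2 scale, or 16.0-fold, the first of 19752 genes when ranked by rise. N1c_RBPJdel minus N1c was -3.27, or 9.64-fold lower, which was also the first rank among falls. These ranks restate the choice of the gene. For groups that did not overlap, the background was 2.90% of all genes higher in N1c than in control and 8.42% lower in N1c_RBPJdel than in N1c, and nothing is read from Cd22 being among them.

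RBPJdel against control is the one comparison without active Notch1, and the choice of Cd22 did not use this difference itself. It is still not separate from the choice. The control arrays entered the rise that chose the gene, and RBPJdel is one of the groups that N1c_RBPJdel is set against. The p-values and interval below are to be read with that limit. Cd22 was 0.38 lower in RBPJdel on the log2 scale (SE 0.16, 95% interval -0.73 to -0.04). This difference had an unadjusted p of 0.0291 and an adjusted p of 0.667 by limma, with a range of 0.198 to 1.00 over the alternatives, and did not pass the threshold of 0.05. By size it ranked 278th among falls. In this comparison 0.0354% of all genes were called higher and 0.0759% lower, and 6.74% had an unadjusted p under 0.05.

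In N1c_RBPJdel, Cd22 stood 0.73 ± 0.17 (SE) above control, or 1.66-fold, and 1.12 above RBPJdel, or 2.17-fold. It ranked 150th among rises from control and 22nd among rises from RBPJdel. For comparison, 9.11% of all genes were higher without overlap in N1c_RBPJdel than in control, and 7.38% higher than in RBPJdel. Set against the difference of N1c from control, 18.3% of the log2 change of Cd22 was kept in N1c_RBPJdel, or 4.41% of the change in intensity. A large part of this rested on N1c_RBPJdel 2, without which the difference from control was 0.51 and the share kept 12.7%. Without N1c_RBPJdel 3 the share was 22.2%.

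The 3 N1c_RBPJdel arrays differed in more than Cd22. N1c_RBPJdel 2 was also the highest of the 3 in Rbpj, at 258, and in the Notch target Dtx1, at 1276 against 630 on each of the others. It was the highest in Hes1, at 108 against 62.9 and 70.6, in Hey1, at 149 against 114 and 125, and in Notch1, at 1239 against 896 and 922. It was likewise the highest in Foxp3, at 4943, and in the B cell receptor component Cd79b, at 656 against 378 and 324. Genes of other kinds were highest there too: Ptpn6 at 739, the sialyltransferase St6gal1 at 991 and the B cell coactivator Pou2af1 at 186. Ms4a1, Cd79a, Jchain, Car1, Pax5 and Ffar1, described below, were highest on another of the 3. The array with the most Cd22 among the 3 was thus the highest in genes of several kinds, with Rbpj, these Notch targets and Cd79b among them. Only chosen genes were compared, and the share of all genes highest on this array was not counted. Nothing is therefore read from these orders. The part of each in the level of Cd22 was not tested.

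The share kept by Cd22 lay within the middle range of the genes that rose in N1c. In N1c against control 185 genes were called higher, and 326 in either direction, or 494 with the replicate number as a block, and 217 without control 4. Over the 185 genes called higher, the median share of the log2 change kept in N1c_RBPJdel was 5.11%, with quartiles of -22.2% and 31.3%, and 68 genes kept a larger share than Cd22 and 116 a smaller one. Over the 65 genes called with a rise of at least 1, which were 0.329% of all genes, the median was 6.48%, with 21 genes above Cd22 and 43 below. The control arrays enter both differences and both differences enter the share, so the shares are a description.

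**Figure D2:**
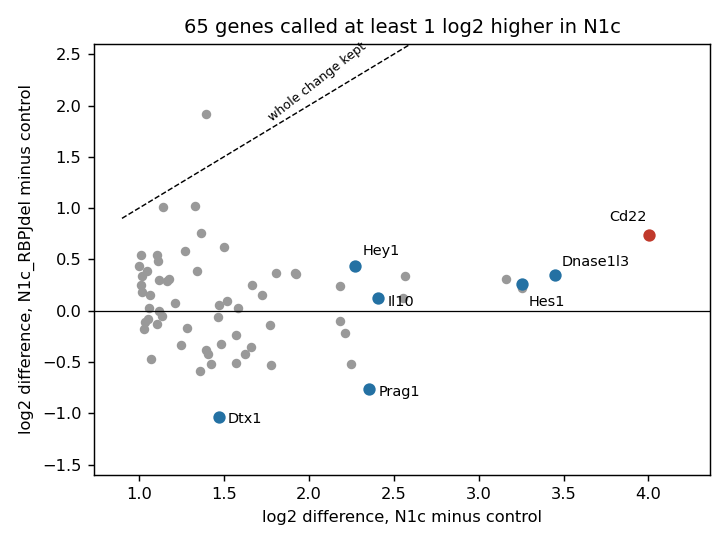
The 65 genes called at least 1 log2 unit higher in N1c than in control: difference of N1c from control (x axis) against difference of N1c_RBPJdel from control (y axis), both log2, from group means. The dashed line marks genes that would keep their whole change. Cd22 (red) has the largest x value, 4.00, and a y value of 0.73.

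The genes with the next largest rises in N1c fell into Notch targets and genes of other kinds. After Cd22 came Dnase1l3, which encodes a secreted DNase, at 3.45, then the Notch target Hes1, a transcriptional repressor, at 3.25. Atp8a2, a phospholipid transporter of membranes, stood at 3.25 and Pde3b, a phosphodiesterase that degrades cyclic AMP, at 3.16. They were followed by Heyl at 2.57, the transporter gene Slc16a5 at 2.55, the anti-inflammatory cytokine Il10 at 2.41, Prag1 at 2.36, Hey1 at 2.27 and the tubulin Tubb2b at 2.25, all log2 differences. Of their changes, Hey1 kept 19.1%, Heyl 13.1%, Dnase1l3 10.1%, Pde3b 9.69% and Hes1 7.88% in N1c_RBPJdel. Prag1 and Tubb2b lay below control there, with shares of -32.4% and -23.2%. In RBPJdel they also differed from control, by -1.20 and -0.57, of which that of Prag1 was called. N1c_RBPJdel stood 0.44 and 0.05 above RBPJdel in these 2 genes, so their negative shares do not show a reversed response to active Notch1.

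Across the 15 arrays, the gene whose log2 values followed those of Cd22 most closely was Hey1, a Notch target that encodes a repressor, with a Pearson r of 0.992. Dnase1l3, Tm6sf1 and the potassium channel Kcnj16 followed at 0.977, 0.976 and 0.976. Then came Hes1 at 0.970, Heyl at 0.967, Atp8a2 at 0.967, the connexin Gjb2 at 0.962, Slc16a5 at 0.959 and Rsu1 at 0.956. The genes that ran most opposite were Nrp1 at -0.965, Ms4a4c at -0.959, Glipr2 at -0.952, Flicr, a noncoding RNA beside Foxp3, at -0.950 and L1cam at -0.937. The measure is led by the step between N1c and the other groups, which all these genes share. Without the N1c_RBPJdel arrays 8 of the 10 most alike were the same, and by Spearman's rho, which uses only ranks, 2 of the 10. Of the 10, 3 had a promoter window in the table. TGGGAA was present in 2 of the 3, beside 28.3% of all genes with a window, and GTGGGAA in 0, beside 7.25%. With 3 genes nothing is read from these counts.

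Hey1 read 92.0, 79.3, 100 and 112 on the control arrays 2, 3, 4 and 5 and 454, 423, 452 and 518 on the N1c arrays 1, 2, 4 and 5. It read 90.5, 103, 83.3 and 95.7 in RBPJdel and 114, 149 and 125 in N1c_RBPJdel. As with Cd22, N1c 5 was the highest N1c array and N1c_RBPJdel 2 the highest N1c_RBPJdel array, and every N1c_RBPJdel array lay above every control array. Hes1 did not share the order of Cd22 within N1c, at 457, 412, 1064 and 764 on arrays 1, 2, 4 and 5. Dtx1, which encodes a ligase of the Notch pathway, ran from 1242 to 2001 in control, 3742 to 5284 in N1c and 338 to 457 in RBPJdel. Within N1c it was highest on arrays 1 and 2, where Cd22 was lowest. Of 14 Notch targets, 6 were called higher and 2 lower in N1c against control, beside 0.937% and 0.714% of all genes, and 5 or 6 and 1 or 2 over the alternatives.

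Of the genes beside Cd22 on chromosome 7, 1 rose with it. Among the 8 measured neighbours on each side, 1 of 16 was called higher in N1c than in control and 0 lower, against the 0.937% and 0.714% of all genes, and their median difference was 0.01. The gene called was Ffar1, a receptor for free fatty acids, which lies 3.93 kb beyond the 3′ end of Cd22. Its control arrays 2, 3, 4 and 5 read 48.7, 56.4, 49.1 and 38.1 and its N1c arrays 1, 2, 4 and 5 read 101, 95.7, 79.1 and 76.0. The N1c arrays of Ffar1 all lay above the control arrays, and their order was the opposite of that of Cd22, which was highest on N1c 5. RBPJdel ran from 50.8 to 57.6, and N1c_RBPJdel read 51.9, 43.7 and 55.2, within or near the control range. Ffar1 rose by 0.88 ± 0.13 (SE) in N1c against control (limma, adjusted p = 0.000499, range 2.29e-05 to 0.00953 over the alternatives). It fell by 0.80 in N1c_RBPJdel against N1c (adjusted p = 0.00154, range 0.000227 to 0.0144), the one neighbour called there, against 4.65% of all genes called lower. In that comparison 4 of the 16 had an unadjusted p under 0.05, and Krtdap differed by 0.46 without being called.

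**Figure D3:**
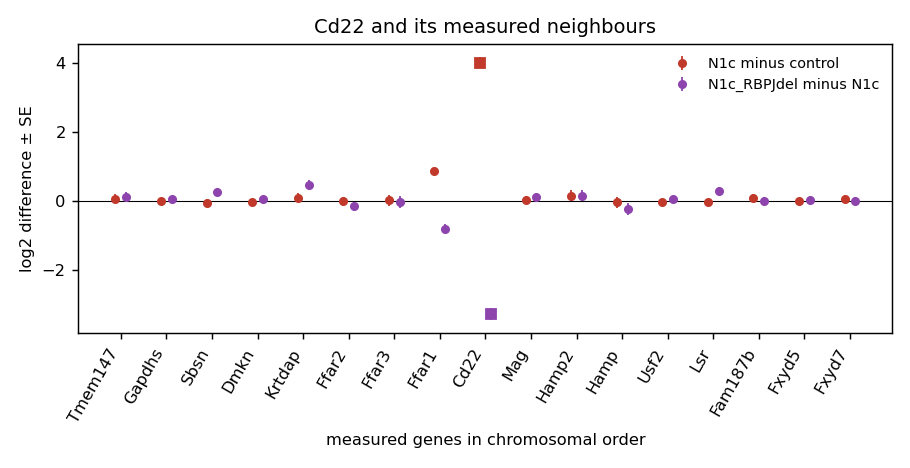
Log2 differences of Cd22 (squares) and its 16 nearest measured neighbours (circles) in chromosomal order, N1c minus control (red) and N1c_RBPJdel minus N1c (purple). Bars are SE from the fit and are hidden where shorter than the symbol. Ffar1 is at 0.88 and -0.80. The other neighbours lie close to 0 in N1c minus control, and Krtdap is at 0.46 in N1c_RBPJdel minus N1c.

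On the other side the nearest measured gene was Mag, another Siglec, whose difference between N1c and control was 0.03. The related receptors Ffar2 and Ffar3 beyond Ffar1 were not called in that comparison. Krtdap was called higher in N1c_RBPJdel than in control, by 0.56 (limma, adjusted p = 0.0241). That call was lost in 7 alternatives, among them without control 2 (adjusted p = 0.0506), control 3 (0.0713), N1c_RBPJdel 1 (0.0643) and N1c_RBPJdel 3 (0.0917), in a range of 0.00472 to 0.0917. Ffar1 itself did not stay above control in N1c_RBPJdel as Cd22 did. The other Siglec genes did not move with Cd22 either. Of 8 other members, limma called 0 in each of the 5 comparisons, and in N1c against control 0 had an unadjusted p under 0.05, against 8.21% of all genes. Siglecg, the other inhibitory Siglec of B cells, had a geometric mean of 90.4 in control, 87.3 in N1c, 102 in RBPJdel and 110 for N1c_RBPJdel. Without N1c_RBPJdel 2, 1 of the 8 was called higher in N1c_RBPJdel against N1c and against control. Calls over all genes, in either direction, then went from 1823 to 3058 and from 1757 to 3088.

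The enzymes and adaptors through which CD22 signals were mostly level between N1c and control. Of 13 measured partners, 0 were called higher and 1 lower, beside 0.937% and 0.714% of all genes, with a median difference of -0.03 against -0.01 over all genes. Ptpn6, the phosphatase that binds the CD22 tail, read 726, 793, 789 and 657 on control arrays 2, 3, 4 and 5 and 877, 818, 769 and 899 on N1c arrays 1, 2, 4 and 5. Its groups overlapped, and the difference of 0.18 was not called (limma, adjusted p = 0.755). Atp2b1, a calcium pump of the plasma membrane, fell by 0.42 (limma, adjusted p = 0.0414), with a range of 0.0164 to 0.141 over the alternatives. The call was lost in 12 of 23 alternatives, which were the replicate block (0.0725) and leaving out any one of control 2, 3, 4 and 5, N1c 1, 4 and 5 and RBPJdel 1, 2, 3 and 4. Syk and Blnk, which carry the antigen receptor signal in B cells, differed by -0.11 and -0.10 and were not called. Lyn, the main kinase of the CD22 tail in B cells, and Lck and Atp2b4 had no feature of their own and were not measured.

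In N1c_RBPJdel against N1c, 2 of the 13 partners were called lower and 0 higher, against 4.65% and 4.58% of all genes, and the median was -0.29 against 0.02. Fyn, a Src family kinase, fell by 0.76 (limma, adjusted p = 0.00459, range 0.000170 to 0.0387). Ptpn11, a phosphatase related to that of Ptpn6, fell by 0.49 (limma, adjusted p = 0.0215, range 0.00514 to 0.121), and the call was lost without N1c 1, N1c 2 or N1c_RBPJdel 1 and with only the groups compared. The count was 1 without any one of these arrays, 3 without N1c_RBPJdel 3 and 6 without N1c_RBPJdel 2, and without N1c 5 it was 3 lower and 1 higher. Calls over all genes, in either direction, were 1823 in the main fit of this comparison. They were 964, 932 and 903 without N1c 1, N1c 2 and N1c_RBPJdel 1. Without N1c_RBPJdel 3, N1c_RBPJdel 2 and N1c 5 they were 1611, 3058 and 2548. Against control, N1c_RBPJdel had 3 partners lower and 0 higher, where 5.12% of all genes were lower and 3.77% higher. The count of lower partners ran from 0 to 7 over the alternatives. It was 0 without any one of control 2, 3 and 4 and N1c_RBPJdel 1. It was 2 without any one of RBPJdel 1, 2 and 3, and 5 without N1c_RBPJdel 2. Calls over all genes, in either direction, were 1757 in the main fit. They were 743, 675, 850 and 530 without control 2, 3 and 4 and N1c_RBPJdel 1, and 3088 without N1c_RBPJdel 2. Against RBPJdel, 0 were called by limma, 5 had an unadjusted p under 0.05, and the background was 1.32% higher, 0.967% lower and 21.2% with an unadjusted p under 0.05. Without N1c_RBPJdel 2, 3 were called lower there, where calls over all genes in either direction went from 452 to 1890.

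The genes that make and remove the sialic acid ligands of CD22 were not called in N1c. Of 16 measured, limma called 0 in N1c against control, 1 had an unadjusted p under 0.05, beside 8.21% of all genes, and the median was -0.05 against -0.01 over all genes. St6gal1, the transferase that makes the preferred ligand of CD22, read 1415, 1400, 1227 and 960 on the control arrays and 1550, 1591, 1161 and 1168 on the N1c arrays, in the same array order as above. The groups overlapped, with a difference of 0.13. In N1c_RBPJdel it read 886, 991 and 757, and it fell by 0.63 against N1c (limma, adjusted p = 0.0153, range 0.000379 to 0.0623). The call was lost without N1c 1 (0.0521), N1c 2 (0.0538) or N1c_RBPJdel 3 (0.0623) and with only the groups compared (0.0579). St3gal1, another sialyltransferase, was called lower in that comparison by 0.61 and St6gal2 higher by 0.41. These calls were lost in 8 and 14 alternatives, with adjusted p ranges of 0.00139 to 0.192 and 0.00543 to 0.198. The list had 0 members lower without any one of N1c 1, N1c 2 and N1c_RBPJdel 3, and 1 lower without N1c_RBPJdel 1. Calls over all genes, in either direction, went from 1823 to 964, 932, 1611 and 903 without these arrays, in that order. Cmah, which in mice makes the glycolyl form of sialic acid, differed by 0.01 between N1c and control. In N1c_RBPJdel against control 2 members of the list were called lower and 0 higher, beside 5.12% and 3.77% of all genes. These counts ran from 0 to 5 and 0 to 1 over the alternatives. There was 1 lower without any one of control 2, 3 and 4, the RBPJdel arrays and N1c_RBPJdel 1 and 3. Calls over all genes, in either direction, were 1757 in the main fit and 530 to 1734 in those fits. Without N1c_RBPJdel 2, 4 members were lower and 3088 genes were called.

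Other receptors with ITIMs did not rise with Cd22 in N1c. Of 14 measured, limma called 0 in N1c against control, 2 had an unadjusted p under 0.05, beside 8.21% of all genes, and the median was -0.12 against -0.01. Pecam1, an adhesion receptor, stood 0.40 below control and was not called, and under 7 alternatives 1 member was called lower. In N1c_RBPJdel against N1c, 3 of the 14 were called higher and 0 lower, beside 4.58% and 4.65% of all genes. Tigit, a checkpoint receptor of T cells, rose by 0.99 (limma, adjusted p = 0.000375, range 7.30e-05 to 0.00797) and Klrg1, a lectin-like receptor of activated T cells, by 0.99 (adjusted p = 0.00163, range 0.000119 to 0.0176). Pdcd1, the checkpoint receptor PD-1, rose by 0.87 (adjusted p = 0.0134, range 0.00274 to 0.0609), a call lost with array weights. Against control, 2 were called higher (Tigit and Klrg1) and 1 lower (Pecam1), beside 3.77% and 5.12% of all genes. Without N1c_RBPJdel 1 these counts were 1 and 0, and calls over all genes in either direction went from 1757 to 530. Where Cd22 was highest, Tigit, Klrg1 and Pdcd1 read no higher than in control, with geometric means of 1110, 441 and 386 in N1c and 1186, 503 and 453 in control.

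**Figure D4:**
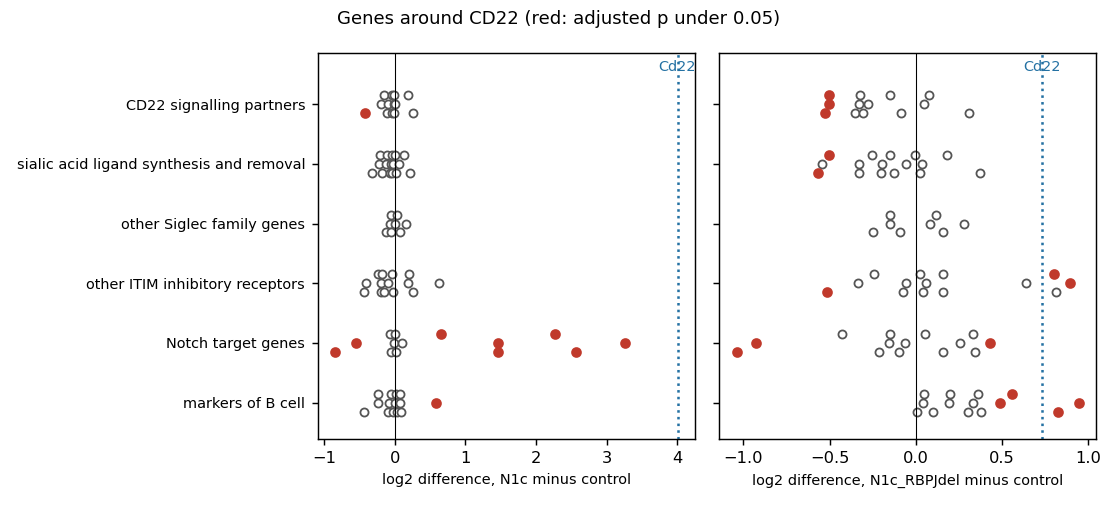
Log2 differences of the members of 6 gene lists, N1c minus control (left) and N1c_RBPJdel minus control (right). Filled red points passed an adjusted p of 0.05 over all genes, open points did not, and points are spread vertically only for legibility. The dotted line marks Cd22, at 4.00 and 0.73, which was not tested there. The left panel has 1 filled point among the 13 partners and none among the other Siglecs, the ITIM receptors and the sialic acid genes.

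Because Cd22 marks B cells, the level of other B cell genes was read on the same arrays. These are bulk samples, in which fewer cells of a type and less RNA per cell cannot be told apart. In N1c the defining B cell genes were not raised beside the 16.0-fold level of Cd22. Of 14 measured B cell markers, 1 was called higher in N1c against control and 0 lower, beside 0.937% and 0.714% of all genes, with a median of 0.00 against -0.01 over all genes. Their summed intensity ran from 1294 to 1568 in control and from 1173 to 1542 in N1c. Over 4 defining markers, Ms4a1, Cd79a, Cd79b and Pax5, the sum ran from 471 to 546 in control and 427 to 478 in N1c. Intensities on this scale do not reach 0.

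Ms4a1, which encodes CD20, ran from 25.7 to 35.8 in control and from 28.3 to 31.4 in N1c. Cd79a, a signalling chain of the B cell antigen receptor, read 29.5, 32.6, 34.3 and 36.3 on the control arrays 2 to 5 and 23.7, 25.98, 29.9 and 34.5 on the N1c arrays 1, 2, 4 and 5. Its N1c arrays had the order of Cd22, and none was above the highest control array. The marker called was Pou2af1, a coactivator of B cell transcription, which rose by 0.59 (limma, adjusted p = 0.00977, range 0.00537 to 0.0492). It read 137, 152, 118 and 127 in control and 210, 170, 215 and 206 in N1c, without overlap. Of 12 B lineage transcription factors, 1 was called in each direction, against the same shares of all genes. Pou2af1 was called higher and Bach2, a repressor of effector genes also used in T cells, lower by 0.58 (limma, adjusted p = 0.0155, range 0.000955 to 0.0601), a call lost without control 2, 3 or 4 or N1c 5. Pax5 and Ebf1, which define the B lineage, differed from control by 0.01 and -0.08.

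In N1c_RBPJdel some of the B cell genes were higher. Of the 14 markers, 4 were called higher than in control and 0 lower, beside 3.77% and 5.12% of all genes, all 14 differences were above 0, and the median was 0.32 against 0.02 over all genes. The count was 2 without N1c_RBPJdel 1, 5 without N1c_RBPJdel 2, and ran from 1 to 5 over the alternatives. The summed intensity of the 14 ran from 1509 to 1803, against 1419 to 1598 in RBPJdel, and that of the 4 defining markers from 526 to 855, against 552 to 660. Both ranges overlapped those of RBPJdel. Ms4a1 read 84.9, 50.4 and 44.2 and Cd79a 69.9, 57.5 and 50.1 in N1c_RBPJdel 1, 2 and 3, above every array of the other groups. Against control, Ms4a1 rose by 0.95 (limma, adjusted p = 0.00512, range 0.00252 to 0.0501, the highest with only the groups compared) and Cd79a by 0.83 (adjusted p = 0.00413, range 0.00177 to 0.0275). Pax5 read 86.0, 90.7 and 108, the highest on N1c_RBPJdel 3, where Cd22 was lowest. Against N1c, 5 of 14 were called higher, beside 4.58% of all genes, and 2 without N1c_RBPJdel 1. Against RBPJdel, 3 were called higher, beside 1.32% of all genes. This count was 2 without RBPJdel 1, 1 without RBPJdel 3, 5 without N1c_RBPJdel 2 and 0 without N1c_RBPJdel 1. Calls over all genes, in either direction, moved the same way, from 452 to 121, 79, 1890 and 76 in that order. Against control they went from 1757 to 530 without N1c_RBPJdel 1 and 3088 without N1c_RBPJdel 2. Against N1c they went from 1823 to 903 without N1c_RBPJdel 1.

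Some markers of other cell types also differed there. Against control, 3.77% of all genes were called higher and 5.12% lower. Of 7 plasma cell markers, 3 were called higher and 0 lower (1 to 3 higher over the alternatives, 1 without control 3), with a median of 0.08. Of 6 erythroid markers, 2 were called higher and 0 lower (2 or 3 higher), with a median of 0.50. Of 10 dendritic, 9 natural killer and 10 basophil, eosinophil or mast cell markers, 1 each was called higher and 0 lower. Their counts ran from 0 to 2, 1 to 4 and 1 to 3 over the alternatives. Of 9 myeloid markers 0 were called (0 to 3 higher). Jchain, a plasma cell gene, read 72.5, 54.5 and 44.7 in N1c_RBPJdel 1, 2 and 3 and rose by 1.16 against control (limma, adjusted p = 0.000360, range 0.000191 to 0.0175). Car1, an erythroid gene, read 852, 400.0 and 137 and rose by 2.58 (adjusted p = 0.00180, range 4.20e-06 to 0.0313). Ms4a1, Cd79a, Jchain and Car1 were all highest on N1c_RBPJdel 1, whereas Cd22 and Cd79b were highest on N1c_RBPJdel 2. The difference of Cd22 from control, 0.73, was of the size of those of Ms4a1 and Cd79a, and whether B cells among the sorted cells had a part in it was not tested. In N1c against control, limma called 0 of 7 plasma cell, 0 of 10 dendritic, 0 of 10 basophil, eosinophil or mast cell and 0 of 6 erythroid markers, of which 1, 1, 0 and 0 had an unadjusted p under 0.05, beside 8.21% of all genes. Where 0.937% of all genes were called higher, 1 of 9 myeloid markers was (Cybb, 0.86), and of 9 natural killer markers 2 (Gzma, 0.90, and Prf1, 0.72), neither of which was called when the fit held the compared groups alone. In N1c_RBPJdel against control 26.4% of all genes, and against N1c 26.5%, had an unadjusted p under 0.05.

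**Figure D5:**
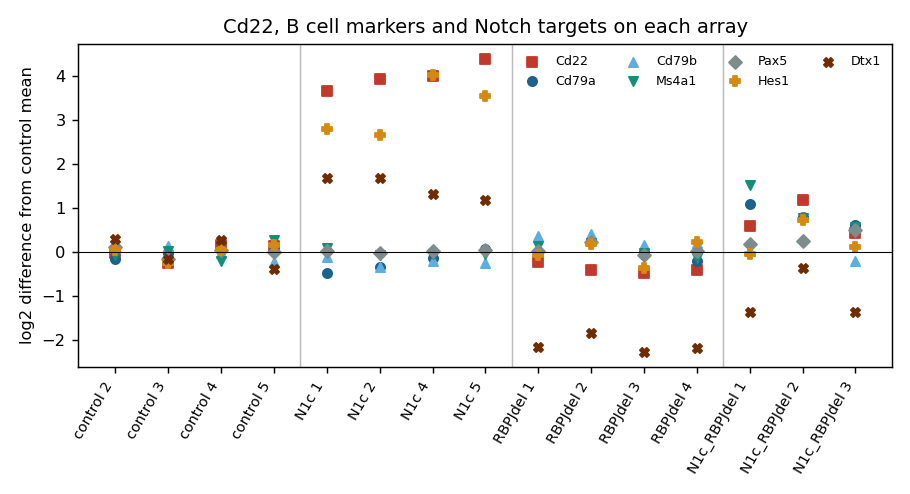
Log2 difference of each array from the control mean for Cd22, the B cell markers Cd79a, Cd79b, Ms4a1 and Pax5, and the Notch targets Hes1 and Dtx1. In N1c, Cd22, Hes1 and Dtx1 lie above 0 and the B cell markers near or below it, and in N1c_RBPJdel, Cd22, Ms4a1 and Cd79a all lie above 0 while Dtx1 lies below.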

How the data were processed

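The authors deposited intensities on a linear scale, 1 per transcript cluster. RMA and Affymetrix Power Tools are the tools named, per the submitters' processing notes, and their versions were not given in the sources used here. Of 24922 features, 21425 named 1 gene, 1399 several and 2098 none. Only the first entered, 21347 of them matched by Entrez ID to RefSeq (GRCm38.p6), and the brightest feature stood for each of 921 genes with several. Values were converted to log2. All 15 arrays and 19752 genes entered a single group-means model in limma 3.58.1 in R 4.3.3 (11 residual and 6.15 prior degrees of freedom), two-sided, with Benjamini-Hochberg adjustment over all genes and a threshold of 0.05. It was tested on simulated data. The number of arrays limits the precision.

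The gene and the lists were chosen with earlier results of these data known. Named are Cd22, Notch1, Rbpj, Foxp3, Hes1 and Dtx1, the 10 next largest rises, the 10 most like and 5 most opposed genes, the 8 measured neighbours on each side, the B cell markers, and per list and comparison up to 5 called members, with 3 others of high intensity. Other list members in the text, such as Siglecg, Syk, Blnk and Cmah, were chosen after their values were seen. Promoter windows come from RefSeq.

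Arrays of different groups share replicate numbers. For N1c and control the deviations of arrays 2, 4 and 5 correlated at 0.417, 0.341 and 0.497, and the replicate number was therefore tried as a block. Some unlike numbers also correlated, control 2 with N1c 1 at 0.371 and control 3 with N1c 2 at 0.350, and others went down to -0.426. The numbers therefore do not settle that arrays were paired. The main fit did not use pairing and called 326 genes in N1c against control. With only the numbers these groups share, and the block, 388 were called. RBPJdel and control had r of 0.166, 0.0711 and 0.417 for arrays 2, 3 and 4. N1c and RBPJdel had 0.111, 0.0815 and 0.457 for arrays 1, 2 and 4. Shared numbers with N1c_RBPJdel had r from -0.120 to 0.237. If arrays were paired, the p-values of the main fit leave that pairing out. Alternatives were quantile and cyclic loess normalization, brighter genes only, log2(intensity + 50), the mean of probe sets, leaving out each array, only the groups compared, the replicate block and array weights.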

Additional observations from a re-analysis of the deposited data

Results flagged for a closer look

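Among 51 gene groups of 4 arrays, 3 had 1 array that stood apart from the other 3, where chance gives about 1 in 20 groups. Notch1 read 836 on control 5, below the other control arrays. Rbpj read 571 on control 2, above the other control arrays. Ms4a1 read 31.4 on N1c 1, above the other N1c arrays and within the control range. The control, N1c and RBPJdel groups of Cd22 had no such array, and groups of 3 arrays, such as N1c_RBPJdel, were not tested.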

How the results depend on the processing

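The differences of Cd22 kept their direction under every alternative run for them. With log2(intensity + 50), N1c minus control was 3.39, N1c_RBPJdel minus N1c -2.88 and N1c_RBPJdel minus RBPJdel 0.74, with N1c_RBPJdel minus control at 0.51 and RBPJdel minus control at -0.23 (limma, unadjusted p = 0.109), since the added constant shrinks the difference of low values. With the replicate block the difference of N1c from control was 3.97, that of N1c_RBPJdel from control 0.89, and RBPJdel against control stayed uncalled. Genes called in N1c against control numbered 494 with the block, 733 with array weights and 217 to 383 when 1 array was left out, the lowest without control 4. RBPJdel against control had 189 with array weights. N1c_RBPJdel against N1c had 1187 with brighter genes only, which tests fewer genes, and 561 with only the groups compared. It had 3699 with the block, which ties arrays of all groups by numbers whose pairing is not known. When 1 array was left out it had 903 to 3058. N1c_RBPJdel against control had 1169 with quantile and 1075 with loess normalization, 406 with only the groups compared, 3767 with the block and 530 to 3088 when 1 array was left out. N1c_RBPJdel against RBPJdel had 192, 98, 2107 and 76 to 1890 in the order brighter genes, groups compared, block and 1 array left out. Among the fits that left out 1 array, the lowest count in these 3 comparisons came without N1c_RBPJdel 1 and the highest without N1c_RBPJdel 2, and the cause was not tested. Of 135 calls of named genes, 76 held under every alternative that tested the gene, 59 were lost under at least 1 and 0 reversed. Detection calls were not used here, so how far the control level of Cd22 stood above background is not known.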
